A study of Rattus norvegicus with 6 samples.

Results

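Mitochondria form a network that is joined and cut throughout the life of a cell. The mitofusins Mfn1 and Mfn2 are GTPases that join outer membranes, and Opa1 is the dynamin-related GTPase that joins inner membranes and keeps cristae tight. Fission is carried out by the dynamin-related GTPase Dnm1l, better known as DRP1, which is drawn to the outer membrane by the receptors Mff, Fis1, Mief1 (MiD51) and Mief2 (MiD49). The inner membrane proteases Oma1 and Yme1l1 cut Opa1, so long forms that fuse membranes are converted to short forms. Heart and muscle cells need both activities to renew their mitochondria. The genes described here are these 10, picked by name from the 40456 genes of a count table. All 10 were in the table, and all 10 were among the 14216 genes that passed the filter on low counts.

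The 6 libraries came from H9c2, a rat cell line started from embryonic heart, of wild-type genotype. Every culture was differentiated for 5 days in medium with 1% serum and 1 µM retinoic acid, and then received 25 nM of an antisense gapmer for 24 h by lipid transfection. A gapmer is a short oligonucleotide with locked nucleic acid ends that leads RNase H to the RNA it pairs with. The control group (n = 3) carried a gapmer without an intended target and the knockdown group (n = 3) one directed at Tug1, a long non-coding RNA. A single line and a single Tug1 gapmer were used, and no library was without a gapmer. The labels do not say whether libraries of a group came from separate cultures, so p-values measure the spread between these libraries, which may be technical. The 2 oligonucleotides of 16 bases are printed 5′ to 3′ because they are the agents of the 2 groups, as the treatment protocol in the labels gives them.
Tug1 gapmer: attcagtagacagcta
Control gapmer: gctcccttcaatccaa

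Depth ran from 12978548 to 13544337 counts, which gave 12.9 to 13.8 counts per CPM (CPM stands for the count scaled to library size, here with TMM factors). Tug1 was at 54.0 ± 1.77 CPM in control and 11.9 ± 0.609 CPM in knockdown libraries (SD, n = 3). The labels call the cells cardiomyocytes. Of 13 cardiomyocyte markers, 4 were above 3 counts in every library, led by Tnnt2, while Nppb was at 0 and Myh6, Myh7, Ryr2, Nkx2-5 and Tbx5 never exceeded 3 counts. The 13 markers summed to 359 to 391 CPM in control and 418 to 471 CPM in knockdown libraries. Most of that sum was Tnnt2 alone, at 335 to 369 CPM in control and 391 to 439 CPM in knockdown libraries. Of the 4 tested markers 3 rose (Tnnt2, Actc1 and Myl2, the last at only 5 to 25 counts), and Gata4 was not called. Of 12 skeletal muscle markers, 11 were above 3 counts in every library. Their summed level was 1296 to 1314 CPM in control and 1733 to 1884 CPM in knockdown libraries, and of 11 tested skeletal markers 8 rose and 1, Myod1, fell (-0.32, edgeR adjusted p 0.000324). Over all tested genes 30.8% were called higher. Summed fibroblast markers (8 genes), led by Col1a1, stood at 43814 to 45162 CPM in control and 41192 to 43997 CPM in knockdown libraries. Of 7 tested fibroblast markers 2 rose and 3 fell, beside 30.9% called lower over all tested genes. Smooth muscle markers (6 genes) stood at 976 to 1070 and 1134 to 1286 CPM, control first, and 3 of 6 tested rose. Endothelial markers (6 genes) stood at 3.02 to 4.63 and 3.11 to 4.20 CPM, control first, and the 1 tested was not called. The part of these shifts in the values given next was not tested. In bulk RNA, fewer cells of a type and less RNA per cell cannot be told apart.

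The 10 genes did not move in one direction. Opa1, Mfn2, both Opa1-cutting proteases and the receptors Mief2 and Fis1 rose in the knockdown libraries, the receptors Mff and Mief1 fell, and Mfn1 and Dnm1l did not pass the test. With edgeR (adjusted p under 0.05) 8 of the 10 genes were thus called, 6 of them higher and 2 lower. Among all 14216 tested genes 61.7% passed, 30.8% higher and 30.9% lower, so a call by itself was common in this comparison. For 9 of the 10 genes the libraries of the groups did not overlap, against 65.6% of all tested genes. Changes were moderate. The median absolute log2 fold change was 0.26 over the 10 genes and 0.34 over all tested genes, and 0 of the 10 reached an absolute value of 1, which 1393 called genes did. The signed median was 0.24 for the 10 genes and 0.00 for all.

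**Figure D1:**
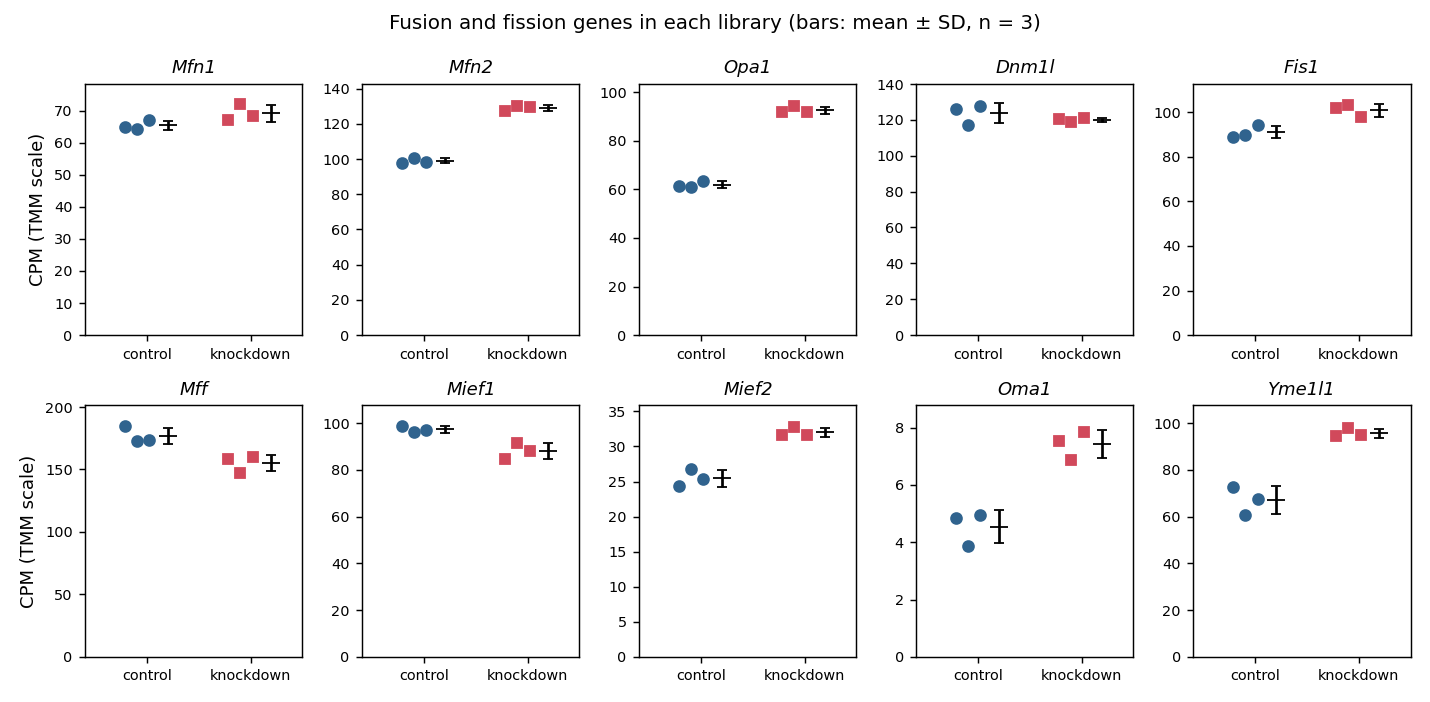
Level of each of the 10 genes in every library, in CPM on the TMM scale from 0 (y axis), for control (circles) and knockdown (squares) libraries, with mean ± SD (n = 3) beside the points. The groups are far apart for Mfn2, Opa1 and Yme1l1, close for Mfn1, Fis1 and Mief1, and overlap for Dnm1l. Levels of different genes are not comparable, as CPM does not correct for transcript length.

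The start regions of the genes were read to see what letters they share. RefSeq (GRCr8) windows from 250 bases before to 50 bases after an annotated start were found for 9 of the 10 genes, in 11 windows. Mfn2 had none in the table used. The 120 bases before the start are shown for 4 genes with different outcomes: Opa1 and Yme1l1, which rose, Mfn1, which did not pass, and Mief1, which fell. Capitals mark exact matches, on either strand, to an ETS factor motif (CCGGAAGT), a cyclic AMP response element (TGACGTCA) or a GC box (GGGCGG).
Opa1, chr11:84689901-84690020, minus strand: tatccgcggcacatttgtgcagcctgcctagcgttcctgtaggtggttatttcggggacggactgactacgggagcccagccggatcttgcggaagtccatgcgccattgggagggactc
Yme1l1, chr17:90195967-90196086, plus strand: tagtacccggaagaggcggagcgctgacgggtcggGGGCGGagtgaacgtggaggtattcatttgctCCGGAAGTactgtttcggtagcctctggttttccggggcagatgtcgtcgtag
Mfn1, chr2:117241638-117241757, plus strand: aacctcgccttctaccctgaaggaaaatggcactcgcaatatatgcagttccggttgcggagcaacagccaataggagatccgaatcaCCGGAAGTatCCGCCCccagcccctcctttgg
Mief1, chr7:113666798-113666917, plus strand: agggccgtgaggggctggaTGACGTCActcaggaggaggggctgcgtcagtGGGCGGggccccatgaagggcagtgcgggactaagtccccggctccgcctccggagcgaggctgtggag

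The ETS letters lay 53 to 46 bases before the start in Yme1l1 and 32 to 25 bases before it in Mfn1. They also lay just after the start in Mief1 and in 1 of the 2 Fis1 windows, so 4 of 11 windows held them, against 7.60% of 12289 windows of tested genes and 3.81% of all 33469 windows. The 4 genes with these letters had all 3 outcomes: Yme1l1 and Fis1 rose, Mief1 fell and Mfn1 was not called. The cyclic AMP response element stood in Mief1 alone among the 11 windows, 101 to 94 bases before the start, and in 2.93% of windows of tested genes. A GC box was found in 10 of 11 windows and in 57.6% of windows of tested genes, with none in the Dnm1l window. Motifs for NRF1 (GCGCATGC), ERR (AAGGTCA) and YY1 (AAGATGGC) were in 0 of the 11 windows and in 4.73%, 3.12% and 5.13% of windows of tested genes. Matches describe letters only, and the files hold no binding data.

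Of the outer membrane fusion genes, Mfn2 rose and Mfn1 did not pass. Mfn2, which also tethers mitochondria to the endoplasmic reticulum, was at 97.9, 100.6 and 98.6 CPM in control replicates 1 to 3 and at 127, 130 and 129 CPM in knockdown replicates 1 to 3. Every knockdown library lay above every control library, with an SD of 1.36 CPM in control and 1.68 CPM in knockdown libraries (n = 3). This was a 1.30-fold difference, or 0.38 on the log2 scale (SE 0.0497; edgeR adjusted p 6.19e-07). Mfn1, the mitofusin with the stronger GTPase activity in tethering, was at 64.9, 64.2 and 67.0 CPM in control and 67.1, 72.2 and 68.3 CPM in knockdown libraries. The groups only just failed to overlap. The log2 fold change of Mfn1 was 0.08 (95% interval -0.04 to 0.20, edgeR adjusted p 0.221), so a rise as large as that of Mfn2 lies outside its interval. Scaling by library totals brought Mfn1 past the threshold (0.13, edgeR adjusted p 0.0436), and an offset for gene length turned its sign (-0.0044, edgeR adjusted p 0.950).

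The inner membrane fusion gene Opa1 had the smallest p of the 10. It was at 61.2, 61.0 and 63.6 CPM in control replicates 1 to 3 and at 91.8, 94.2 and 91.8 CPM in knockdown replicates 1 to 3. No control library came near a knockdown library. The difference was 1.49-fold, or 0.58 on the log2 scale (SE 0.0540; edgeR adjusted p 3.29e-09), and exceeded in absolute size that of 72.1% of tested genes. Gene counts do not separate Opa1 splice forms or the long and short proteins.

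Both proteases that cut Opa1 rose with it. Yme1l1, an ATP-dependent protease facing the intermembrane space, was at 72.8, 60.7 and 67.6 CPM in control and 94.4, 97.7 and 94.7 CPM in knockdown libraries. The control libraries were spread more widely (SD 6.07 CPM) than the knockdown libraries (SD 1.84 CPM), yet none reached the knockdown range. Yme1l1 was 1.43-fold higher, or 0.51 on the log2 scale (SE 0.0614; edgeR adjusted p 1.75e-07). On GRCr8 the Yme1l1 span overlaps that of Mastl, which had 307 counts in all 6 libraries together and also rose (0.80, edgeR adjusted p 0.00181), and whether counting used strand was not stated.

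Oma1, the stress-activated protease, was the lowest in counts of the 10, with 63, 50 and 64 counts in control and 104, 93 and 104 counts in knockdown libraries. These are 4.55 ± 0.587 and 7.42 ± 0.497 CPM (SD, n = 3), and the groups were well apart. Its log2 fold change of 0.71 (SE 0.155) was the highest of the 10 and also the least precise, with a 95% interval from 0.38 to 1.03 and an edgeR adjusted p of 0.00041. Oma1 has the longest genomic span of the 10, at 143.5 kb, and the offset for gene length lowered its value to 0.45 (edgeR adjusted p 0.0142).

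**Figure D2:**
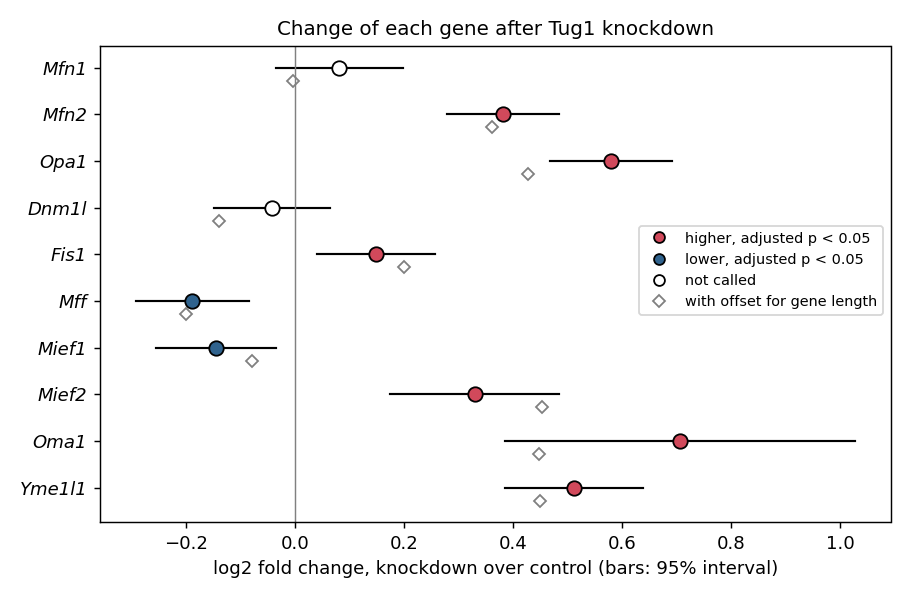
Log2 fold change, knockdown over control, of each of the 10 genes (circles) with the 95% interval, filled by call. Grey diamonds give the value with an offset for gene length. Opa1, Oma1 and Yme1l1 lie highest, Mff and Mief1 lie below 0, and the diamonds of Oma1 and Opa1 sit to the left of their circles.

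The fission GTPase itself did not pass the test. Dnm1l was at 125.9, 117.3 and 127.7 CPM in control and 120.4, 118.7 and 121.1 CPM in knockdown libraries. The knockdown values lay within the range of the controls. Its log2 fold change was -0.04 (95% interval -0.15 to 0.06, edgeR adjusted p 0.486). With the offset for gene length it was called lower (-0.14, edgeR adjusted p 0.0154), and with library totals its sign was positive (0.01, edgeR adjusted p 0.877).

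The 4 receptors that bring DRP1 to the outer membrane moved apart. Mff, described as the main receptor for DRP1 in many cells, was at 184.5, 172.6 and 173.2 CPM in control and 158.2, 147.4 and 159.7 CPM in knockdown libraries. All knockdown libraries lay below all controls, and Mff fell by 0.19 on the log2 scale (SE 0.0501; edgeR adjusted p 0.0023). Fis1, a tail-anchored protein that also acts in mitophagy, was at 89.0, 89.9 and 94.1 CPM in control and 101.8, 103.0 and 97.6 CPM in knockdown libraries. The highest control library and the lowest knockdown library, both replicate 3, came close to each other. Fis1 was higher by 0.15 on the log2 scale (SE 0.0527; edgeR adjusted p 0.018). That call was lost without control replicate 1 (edgeR adjusted p 0.0882), control replicate 2 (0.0549) or knockdown replicate 2 (0.0575), and with no filter on low counts (0.0535). With library totals (edgeR adjusted p 0.00198) and with the offset for gene length (0.0017) its p was smaller.

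The paralogues Mief1 and Mief2, adaptors that bind DRP1 at the outer membrane, went in opposite directions. Mief2 was at 24.3, 26.8 and 25.3 CPM in control and 31.6, 32.8 and 31.6 CPM in knockdown libraries, with a clear gap between the groups. It rose 1.26-fold, or by 0.33 on the log2 scale (SE 0.0749; edgeR adjusted p 0.000569). Mief1 was at 98.9, 96.3 and 96.9 CPM in control and 84.5, 91.4 and 88.2 CPM in knockdown libraries. The knockdown libraries were lower throughout but spread more. On GRCr8 its span overlaps a further gene, LOC134479940, that was not analysed here. Mief1 fell by 0.15 on the log2 scale (SE 0.053; edgeR adjusted p 0.0209). Its call was lost without control replicate 1 (edgeR adjusted p 0.0781), knockdown replicate 1 (0.103) or knockdown replicate 3 (0.0503), with library totals (-0.09, 0.134) and with the offset for gene length (-0.08, 0.179).

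Ratios of related genes within a library do not depend on how libraries are scaled, and 4 were compared by an exact permutation test, two-sided, for which 0.1 is the smallest p that 3 against 3 libraries allow. Mief1 counts were 3.83 ± 0.236 times those of Mief2 in control and 2.75 ± 0.066 times in knockdown libraries (SD, n = 3, exact p = 0.1). For Mfn1 over Mfn2 the ratio was 0.661 ± 0.0206 in control and 0.537 ± 0.0151 in knockdown libraries (SD, n = 3, exact p = 0.1). Mff over Fis1 stood at 1.94 ± 0.117 and 1.54 ± 0.103 in the same order (SD, n = 3, exact p = 0.1). In these 3 pairs no library of a group reached the range of the other group. Oma1 over Yme1l1 was at 0.0683 ± 0.00472 and 0.0781 ± 0.00654, and there the groups overlapped (SD, n = 3, exact p = 0.2). Adjusted over the 4 pairs the p-values were 0.133 for the first 3 and 0.2 for the last, so this design could not bring any of them under 0.05.

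**Figure D3:**
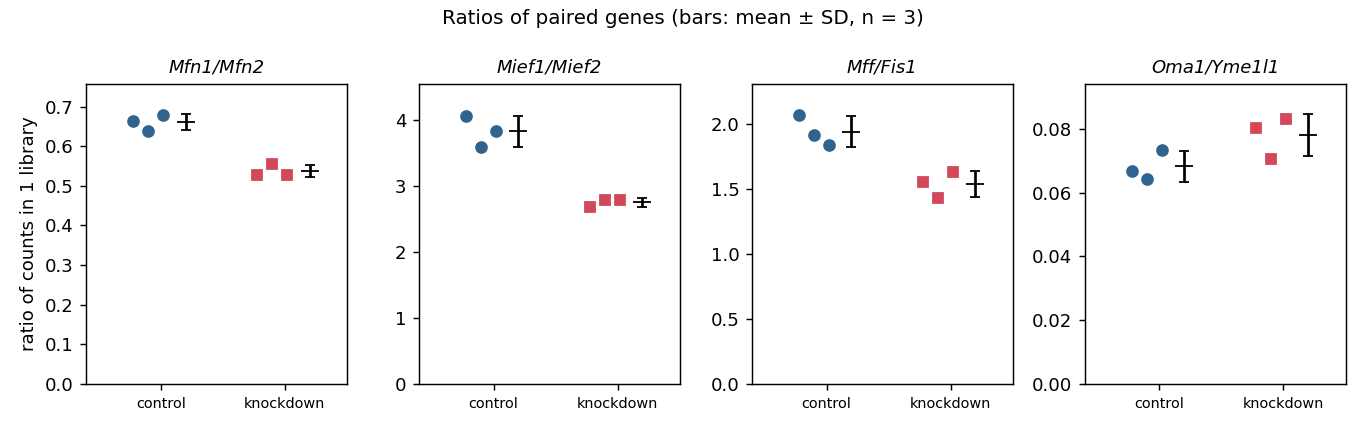
Ratio of the counts of 2 genes in the same library (y axis, from 0) for 4 pairs, in control (circles) and knockdown (squares) libraries, with mean ± SD (n = 3). The ratios Mfn1/Mfn2, Mief1/Mief2 and Mff/Fis1 are lower in every knockdown library than in any control library, and those of Oma1/Yme1l1 overlap. Only the change of a ratio is read here, as genes differ in length.

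Gene length was set beside these values because it moved with the comparison. The 3273 tested genes with the longest genomic spans on GRCr8 had a median log2 fold change of 0.23, and the 3273 with the shortest a median of -0.15. The part of length in the values of single genes was not tested beyond the offset. That offset is fitted to the length trend of each of these same libraries, so both medians came to 0.00 by construction. It also takes out any difference between the groups that follows length. The median span of tested genes was 22.4 kb. The spans of Oma1 (143.5 kb), Opa1 (77.1 kb), Dnm1l (51.6 kb), Mfn1 (47.5 kb), Yme1l1 (40.2 kb), Mfn2 (29.9 kb) and Mff (28.2 kb) were above it, and those of Fis1 (14.9 kb), Mief1 (12.6 kb) and Mief2 (6.08 kb) below. With the offset for length, Opa1 (0.43), Mfn2 (0.36), Yme1l1 (0.45), Mief2 (0.45), Oma1 (0.45) and Fis1 (0.20) stayed past the threshold as higher. Mff (-0.20) stayed past it as lower. Mief2, the shortest of the 10 genes, and Fis1 (0.20) had larger values with the offset than without it.

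Other genes that act on the same machinery were compared from 6 lists, 82 tested genes in all, none of which is among the 10. Among all tested genes 61.7% were called, 30.8% higher and 30.9% lower. The shares called for assisting factors (57.1%), the MICOS list (63.6%) and mass markers (66.7%) were near that. They were 78.6% for modifying enzymes, 81.8% for the protease list and 85.7% for transport and contact. Factors that assist fusion or fission were divided, with 5 of 14 tested genes higher, 3 lower and a median log2 fold change of 0.04. The highest were Miga2 (0.82, SE 0.0792), a mitoguardin that promotes fusion, and Slc25a46 (0.63, SE 0.0697), an outer membrane protein tied to both processes. The lowest were Mtfr1 (-0.59, SE 0.0538), a fission regulator, and Inf2 (-0.57, SE 0.051), a formin that builds actin where the endoplasmic reticulum constricts mitochondria. Inf2 was at 289 ± 21.5 CPM in control and 194 ± 2.18 CPM in knockdown libraries (SD, n = 3).

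Enzymes that modify DRP1 or the mitofusins were also divided, with 7 of 14 tested genes higher and 4 lower (median 0.16). Akap1, which anchors protein kinase A at the outer membrane where it can phosphorylate DRP1, rose from 59.8 ± 2.10 to 114 ± 3.75 CPM (SD, n = 3, log2 fold change 0.93, edgeR adjusted p 2.07e-12). Pgam5, a mitochondrial phosphatase with DRP1 among its reported substrates, fell from 133 ± 5.12 to 68.1 ± 4.93 CPM (SD, n = 3, log2 fold change -0.97, edgeR adjusted p 2.31e-12). Both changes were larger than that of any of the 10 genes. Of the ubiquitin ligases that act on mitofusins, Mul1 rose (0.75, SE 0.0903) and Huwe1 fell (-0.82, SE 0.0453).

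In the MICOS and cristae junction list, whose complex works with Opa1 on cristae, 6 of 11 tested genes rose and 1 fell (median 0.36). Apool (1.22, SE 0.108) and Chchd6 (0.99, SE 0.14) rose most, and the core subunit Immt was the one that fell (-0.19, SE 0.0485). The spans of Apool (65.95 kb) and Chchd6 (220.7 kb) were above the third quartile of tested genes, 53.97 kb. Of the inner membrane proteases, prohibitins and partners of Oma1, 3 of 11 tested genes rose and 6 fell (median -0.14). The rhomboid protease gene Parl (0.43, SE 0.0636) and the m-AAA subunit gene Afg3l2 (0.25, SE 0.0576) rose as Oma1 and Yme1l1 did, while the m-AAA partner Spg7 (-0.25, SE 0.0623) and the matrix protease gene Lonp1 (-0.29, SE 0.0484) fell. The 9 called genes of this list became 4 without knockdown replicate 3 and at the stricter adjusted p of 0.01.

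Genes for mitochondrial transport and contact with other organelles were mostly higher, with 10 of 14 tested genes up and 2 down (median 0.34). The motor adaptor Trak1 (0.73, SE 0.0636) and the kinesin gene Kif1b (0.72, SE 0.0533) rose most. Both have long spans, at 154.9 and 135.1 kb. Both Miro GTPase genes, which link mitochondria to motors, were lower: Rhot1 at -0.14 (SE 0.0559) and Rhot2 at -0.24 (SE 0.0734). Of 18 markers of mitochondrial mass, all tested, 8 rose and 4 fell, with a median of 0.07, below the 0.24 of the 10 fusion and fission genes. Timm23 (0.64, SE 0.0593) and Timm44 (0.60, SE 0.0614) of the import machinery were highest, and Tfam (-0.52, SE 0.0657), which packs mitochondrial DNA, and Tomm70 (-0.39, SE 0.0556) lowest. No difference between lists was tested. With the offset for gene length, called genes went from 12 to 9 in the transport and contact list and from 12 to 16 among mass markers. They went from 8 to 10 among assisting factors, from 7 to 8 in the MICOS list and from 9 to 7 in the protease list. The modifying enzymes stayed at 11.

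**Figure D4:**
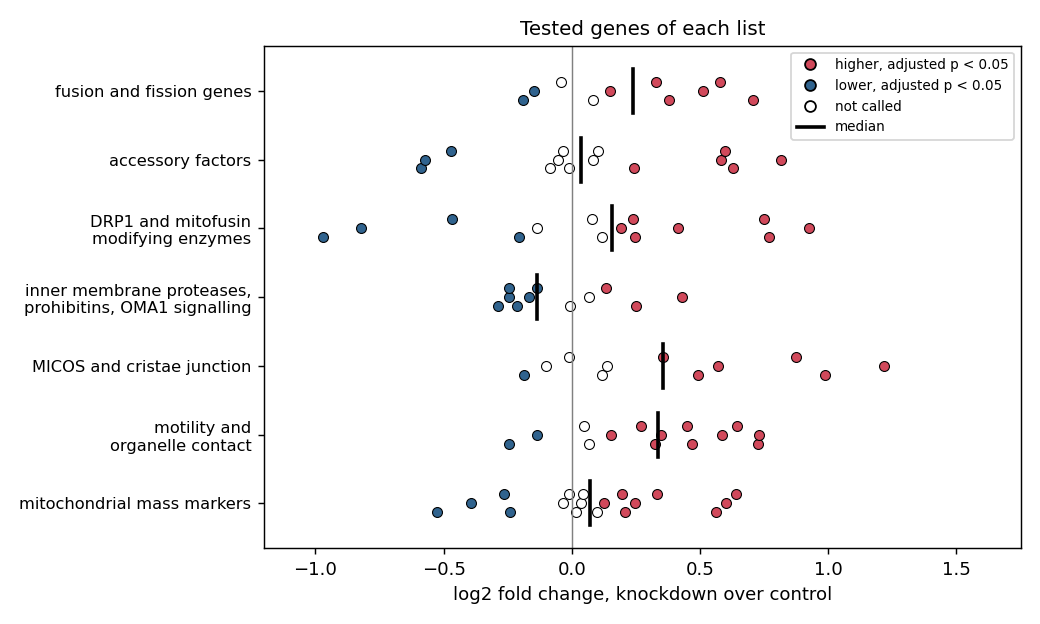
Log2 fold change, knockdown over control, of every tested gene of the 10 fusion and fission genes and of the 6 related lists, with the median as a bar and the fill showing the call. Medians run from -0.14 (inner membrane proteases, prohibitins, OMA1 signalling) to 0.36 (MICOS and cristae junction), and each list holds genes called in both directions.

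Profiles over the 6 libraries were compared with those of the 82 list genes by the root mean square difference of centred log2 CPM. The closest match was that of Opa1 with Samm50, which encodes the outer membrane assembly protein bound to MICOS, at 0.0184 (the median over the 82 genes was 0.245). Parl was nearest both to Mfn2 (0.0511) and to Yme1l1 (0.0636). Kif1b was nearest to Oma1 (0.0848), Sdhb to Mief2 (0.0486) and Atp5f1b to Fis1 (0.03). Among the genes that fell, Rhot1 was nearest to Mff (0.0405) and the protease gene Htra2 to Mief1 (0.0357). With 2 groups of libraries, such a match mainly reflects a change of like size and direction.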

How the data were processed

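Poly-A RNA was sequenced from 6 H9c2 libraries after stranded preparation from 500 ng of total RNA, per the labels. The authors deposited raw counts per gene, with replicates kept apart. FastQC 0.11.7, fastp 0.14.1 and STAR 2.5 are named in the submitters' processing notes. The counting tool, genome build, annotation and use of strand are not given in the sources used here.

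Counts were fitted across all genes with edgeR 4.0.16 in R 4.3.3: a filter at a minimum count of 10 and a total of 15, TMM scaling, the quasi-likelihood test (two-sided, knockdown against control, no block) and Benjamini-Hochberg adjustment over 14216 genes, with calls under 0.05. SE and intervals come from that test. Ratios of genes used a prior count of 0.5. The 10 genes, the 6 lists, the markers and the motifs were chosen with earlier results of these data known, and the motifs also with the windows seen. In each list the 2 highest and 2 lowest called genes with a mean of at least 5 CPM are named. The listed name Phb was read under the symbol Phb1 of the counts, and Senp5 was not analysed here. Alternatives were DESeq2 1.42.0 size factors and Wald test, library totals, limma-voom (limma 3.58.1), other filters, an adjusted p of 0.01, the replicate number as a block, an offset for genomic span (lowess span 0.3, 13090 genes with a span) and each library left out. The fit was also run on simulated counts with few changed genes and no length trend. These data differ in both, so that run does not test the calls made here. Replicate numbers showed no strong pairing of libraries: same-numbered deviations correlated at -0.00479, 0.0245 and 0.0204 across genes. Genes with low counts weigh as much as others in these values, so a weak pairing could be missed. Intervals cover the spread of these libraries, and counts without molecular identifiers are not independent molecules.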

Additional observations from a re-analysis of the deposited data

How the results depend on the processing

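Opa1, Mfn2, Yme1l1, Oma1, Mief2 and Mff held both sign and call under all 16 alternatives; the number of called genes among the 10 ran from 6 to 8. With the replicate number as a replicate block 8 of the 10 and 8848 genes overall were called, and no call among the 10 changed. Calls over all genes ran from 7353 to 8987. The number called lower was 1 with library totals and at an adjusted p of 0.01, and 1 to 2 when a library was left out. Mief1 was at -0.093 with library totals, -0.080 with the length offset (-0.081 with the replicate block added), -0.15 at the stricter threshold and -0.17 to -0.11 when a library was left out. Fis1 was at 0.14 without a filter, 0.15 at the stricter threshold and 0.13 to 0.18 when a library was left out. Mfn1 was at 0.13 and called with library totals, and at -0.0044 with the length offset (-0.0049 with the block). Dnm1l was at 0.010 with library totals, and at -0.14 and called with the length offset, with and without the block. Library totals moved the median of all genes from 0.00 to 0.06. The protease and prohibitin list had 4 called genes at the stricter threshold and 4 to 7 when a library was left out. The cause of the lost calls was not tested. The 4 ratios were run under 8 alternatives: a prior count of 2, the replicate block and each library left out. They kept their sign in all 8 and moved by less than 1 SD, taken as the larger SD of the 2 groups. With the replicate block they could not move, as the mean of paired differences equals the difference of group means. The length offset was not applied to the ratios. Among single genes under that offset, Oma1 (0.447) and Yme1l1 (0.449) had nearly the same log2 fold change. Genes of the other pairs stayed apart: Mfn1 at -0.0044 and Mfn2 at 0.36, Mief1 at -0.080 and Mief2 at 0.45. Mff was at -0.20 and Fis1 at 0.20. Depth limits Oma1, at 50 to 104 counts per library.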
